A study of Mus musculus with 32 samples.

Results

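Wild-type and reporter hindlimb buds with an intact Etv2 gene were profiled by ATAC-seq at 3 stages, and the regions described here are those that appeared in, or were lost from, the lists of accessible sites between these stages. The set holds 4 of the 32 libraries of the series and was chosen by the sample titles, namely 1 library named E9.5 HL, 2 named E10.25 WT and 1 named E10.5 Posterior after the stage of the embryos. The E9.5 HL library came from whole hindlimb buds of wild-type embryos, collected before Shh is expressed there. The E10.25 WT libraries came from the posterior part of wild-type hindlimb buds. The E10.5 Posterior library came from EGFP+ cells of the posterior hindlimb of Shh-EGFP knock-in embryos, which carry the Shh-EGFP-Cre allele and in which EGFP marks the cells that express Shh. The labels describe a stain for CD31, Tie2 and CD45, which mark endothelial and blood cells, only in the sort of EYFP+ cells, and do not say whether these 4 libraries were depleted in the same way. No Etv2 allele was altered in these 4 libraries. Stage, position in the bud, the EGFP sort and the reporter allele changed together and cannot be told apart, and neither E9.5 nor E10.5 Posterior had a replicate. The wild-type libraries were each made from hindlimb buds pooled over several embryos, and the E10.25 WT replicates carry the same date in their labels.

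In ATAC-seq a transposase cuts DNA where chromatin is open, and the summit of a peak marks the most accessible base of a site. Promoters of broadly expressed genes are open in most cells, whereas distal enhancers are open in particular cells and at particular stages. In the hindlimb bud, Isl1, Pitx1 and Tbx4 act early to set up the limb field, Fgf10 signals from mesenchyme to the overlying ectoderm, and Shh, made at the posterior margin, patterns the bud from posterior to anterior. Limb expression of Shh depends on the ZRS, an enhancer that lies far from the gene in an intron of Lmbr1, and the 5′ genes of the HoxD and HoxA clusters are switched on in the posterior and distal bud during the same period.

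The deposited lists held 36951 summits for E9.5 HL, 43571 and 34055 for the E10.25 WT replicates and 45348 for E10.5 Posterior, each ranked by the −log10 of the q-value. All were limited to their 30000 highest summits, and a region is a 200-bp interval centred on a summit. A list holds a region when one of its summits lies within 200 bp of the centre. The values just inside and just outside the limit were the same in every list (3.77 for E9.5 HL, 5.36 and 3.30 for E10.25 WT, 5.39 for E10.5 Posterior), and 1229 summits of E9.5 HL and 1400 of E10.25 WT replicate 1 shared that value, so that their order at the limit was set by genome position alone. The lists hold no read counts and the depth is unknown, so a site that is absent was not called and is not shown to be closed. In bulk libraries a site open in fewer cells and a site less open in each cell cannot be told apart. The defining endothelial promoters Cdh5, Pecam1, Tek and Tie1, and the leukocyte promoter Ptprc, were absent from all 4 whole lists. Other promoters of the endothelial and blood lists were present, such as Kdr (ranks 14455, 8971, 9110 and 14865), Flt4 (4293, 8503, 8929 and 3194) and Ikzf1 (10356, 7546, 7228 and 13955). The promoter of a gene is given by its best-ranked summit within 1000 bp of any annotated start of its protein-coding transcripts. The ranks of a promoter in different lists can therefore come from different sites. A region is classed as a promoter site by any annotated start, including those of non-coding transcripts. The Prrx1 promoter, of a mesenchymal gene, had a site 185 bp into the gene in all 4 lists (ranks 22217, 15896, 15046 and 26441) and a site 870 bp upstream at E9.5 and E10.5 alone (ranks 12320 and 18214).

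Regions that carried the short words set out further below are shown first, because they make concrete what was found at each stage. For each stage they are among the best-ranked distal regions near genes of the lists described below, with no other-stage summit within 1 kb, that held the word with its highest share there among the 3 stage classes. Each word is marked for its own stage only, and other words of the search are left in lower case. The sequences are the forward strand (+) of the RefSeq genome, GRCm38.p6, the assembly of mm10. Capitals mark the word on either strand. The first pair was listed at E9.5 only and carries a GATA word (AGATAA or TGATAA), in an intron 136 kb upstream of Osr1, an early regulator of intermediate and lateral mesoderm, and in an intron of Sox5, a cartilage regulator.
Osr1 region, chr12:9438746-9438945: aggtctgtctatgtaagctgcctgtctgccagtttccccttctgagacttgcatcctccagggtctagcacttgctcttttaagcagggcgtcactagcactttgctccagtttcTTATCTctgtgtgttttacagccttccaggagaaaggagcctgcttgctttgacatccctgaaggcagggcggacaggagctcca
Sox5 region, chr6:143867146-143867345: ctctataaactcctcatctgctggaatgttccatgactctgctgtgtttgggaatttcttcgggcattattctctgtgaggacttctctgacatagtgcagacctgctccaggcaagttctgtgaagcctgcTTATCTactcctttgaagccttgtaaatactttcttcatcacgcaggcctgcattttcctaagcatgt
The next region was listed from E10.25 on and carries the homeobox word TAATTA, bound by LIM and many other homeodomain proteins, in an intron of Fgf10.
Fgf10 region, chr13:118746525-118746724: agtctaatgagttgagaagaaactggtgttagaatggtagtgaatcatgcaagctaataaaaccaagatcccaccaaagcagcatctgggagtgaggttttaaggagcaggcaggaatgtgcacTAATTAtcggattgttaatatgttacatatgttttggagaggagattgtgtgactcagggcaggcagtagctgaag
The last pair was listed at E10.5 only and carries the TEAD word GGAATG. The first lies 69.4 kb upstream of the nearest protein-coding start of Fgfr2, the receptor for FGF10, and counts as intron by the gene's annotated span. The second lies 513 kb upstream of Rarb, a retinoic acid receptor.
Fgfr2 region, chr7:130335552-130335751: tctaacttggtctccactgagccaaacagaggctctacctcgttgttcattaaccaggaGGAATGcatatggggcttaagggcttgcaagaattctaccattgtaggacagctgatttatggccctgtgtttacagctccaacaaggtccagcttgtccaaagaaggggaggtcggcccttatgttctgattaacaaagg
Rarb region, chr14:17089177-17089376: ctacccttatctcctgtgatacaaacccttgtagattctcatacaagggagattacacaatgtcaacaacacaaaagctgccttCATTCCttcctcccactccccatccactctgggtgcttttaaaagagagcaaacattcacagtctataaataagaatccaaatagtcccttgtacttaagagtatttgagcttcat
The words are descriptions of the sequence, and no factor was measured on these sites. The word was present in 29 of the 80 distal list-gene regions without a neighbour at E9.5 only (GATA), 13 of 37 from E10.25 on (TAATTA) and 26 of 115 at E10.5 only (TEAD). Over all distal regions without a neighbour in the same classes, the shares were 26.0% (GATA), 21.5% (TAATTA) and 22.65% (TEAD).

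The 4 lists together gave 54510 regions, and the largest group was shared by every stage. A total of 13733 regions (25.2%) were in all 4 lists. There were 6477 regions listed at E9.5 only (11.9%), 2542 listed in both E10.25 WT replicates and at E10.5 but not at E9.5 (4.66%, called from E10.25 on), and 7032 listed at E10.5 only (12.9%). A further 3335 were in both E10.25 WT lists alone and 2605 were listed until E10.25. Disagreement between the E10.25 WT replicates gives a partial measure of the error, since 3976 regions were in replicate 1 alone of the 4 lists and 4618 in replicate 2 alone. These 2 counts leave out regions on which the replicates disagreed but which another stage held, so they understate the disagreement. The counts at E9.5 only and E10.5 only were larger than these 2 counts, but each rested on 1 library and had no test. The replicates shared 22215 regions (72.4% of the 30694 of replicate 1 and 72.6% of the 30605 of replicate 2). Lists of different stages shared 18485 to 19494 (60.5% to 63.9% of either list).

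Absence from a list took more than one form. Of the E9.5 only regions, 1942 had a summit within 200 bp in another list below rank 30000, 1632 had a summit 200 to 1000 bp away, and 2903 (44.8%) had none within 1 kb in any whole list of another stage. The last group, here called regions without a neighbour, numbered 1341 (52.8%) among the regions from E10.25 on and 4191 (59.6%) among those at E10.5 only. The same count was 1685 for E10.25 WT replicate 1 alone and 1022 for replicate 2 alone. This distance was chosen after the data had been seen.

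**Figure D1:**
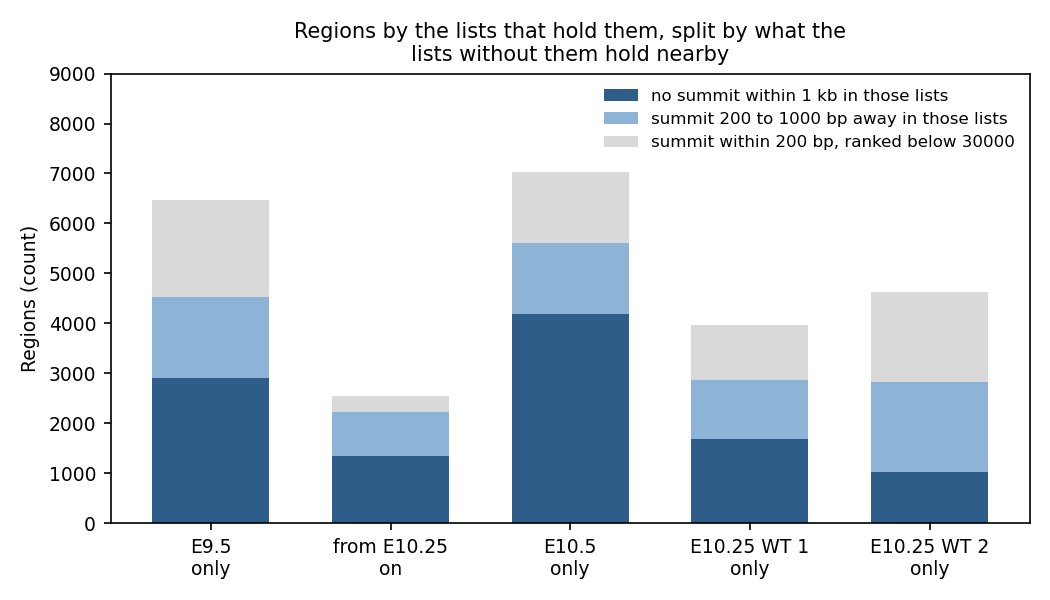
Number of regions (vertical axis) by the lists that hold them, for the stage classes and for regions in 1 E10.25 WT replicate and no other list. Bars are divided by what the other lists hold nearby. The E9.5 only and E10.5 only bars (6477 and 7032) stand above the bars for a single replicate (3976 and 4618), and under 60% of each stage bar has no neighbour within 1 kb.

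Regions of a single stage lay far down the lists. Among the 5000 highest summits of E9.5 HL, 87.1% of the regions were in all 4 lists and 1.25% in this list alone. Among those ranked 25001 to 30000, 10.4% were in all 4 lists and 50.0% in E9.5 HL alone. At E10.5 the corresponding shares in 1 list alone were 1.5% and 53.0%. E10.25 WT replicate 1 shared 95.1% of its best-ranked regions and 37.2% of its lowest-ranked with replicate 2, so that a large part of the low-ranked difference was also seen between replicates. The median rank was 23335 at E9.5 only and 22990 at E10.5 only, against a median mean rank of 17387 for regions from E10.25 on and 8617 for regions in all 4 lists. A total of 292 regions at E9.5 only, 399 from E10.25 on and 324 at E10.5 only ranked 10000 or better.

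Stage regions were mainly distal. Promoters, taken as sites within 1000 bp of an annotated transcription start, made up 36.2% of all regions and 69.7% of those in all 4 lists (9567 of 13733). The share was 15.4% at E9.5 only (996 of 6477), 34.0% from E10.25 on (863 of 2542) and 15.4% at E10.5 only (1086 of 7032). The class from E10.25 on was thus near the share of all regions. Distal regions also became more frequent down each list. In E9.5 HL they made up 16.6% of regions at ranks 1 to 5000 and 77.0% at ranks 25001 to 30000. In E10.25 WT replicate 1 these shares were 8.69% and 83.0%. The part of rank in the promoter shares of the classes was not tested. Without a neighbour the promoter share was 5.89%, 15.1% and 7.61%. Introns held 43.6%, 38.2% and 46.1% of the same regions, and intergenic sequence 48.0%, 43.0% and 43.3%. The share lying over 100 kb from the nearest protein-coding start was 30% at E9.5 only, 25.5% from E10.25 on and 27.9% at E10.5 only. It was 20.7% of all regions and 8.24% of regions in all 4 lists. Among distal regions the median GC content was 50.5% at E9.5 only, 48.5% from E10.25 on and 48.5% at E10.5 only.

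**Figure D2:**
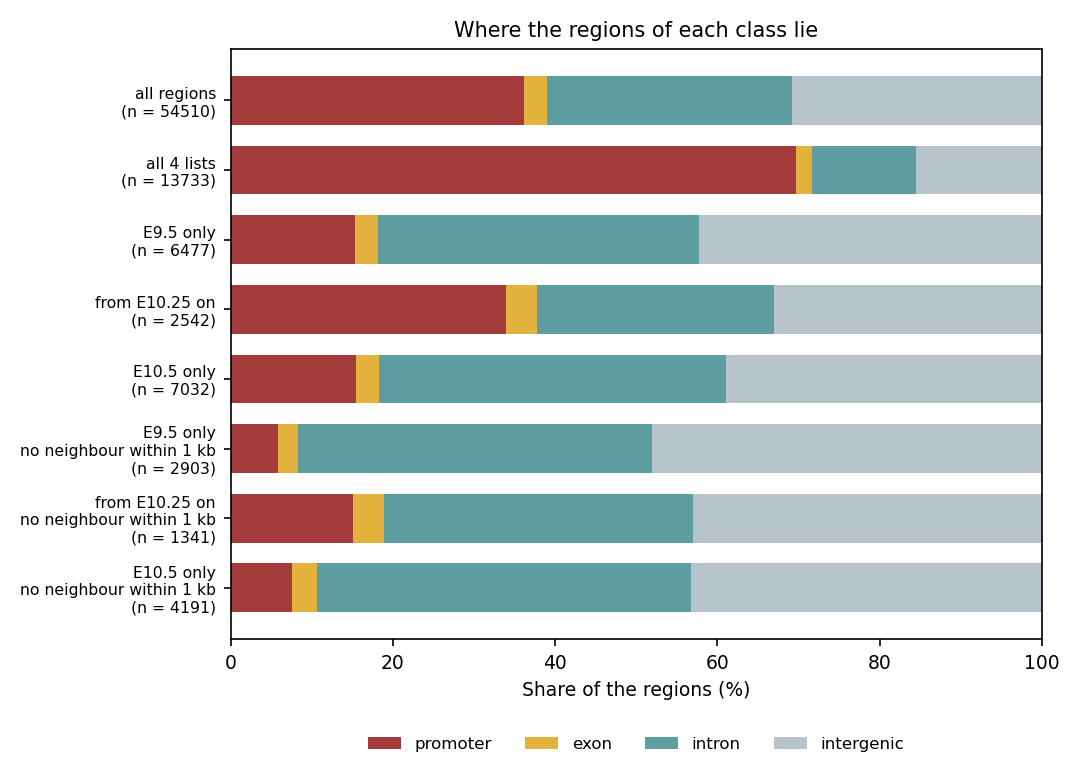
Share of the regions of each class (horizontal axis, percent) that lie at a promoter, in an exon, in an intron or between genes, with the number of regions in brackets. Promoters fill 69.7% of the bar for all 4 lists and 5.89% to 15.1% of the bars for stage regions without a neighbour.

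At the Shh locus the ZRS and the Shh promoter were listed late. The E9.5 list held no summit in the ZRS. At E10.25 replicate 1 had a ZRS summit at base 29315322 of chromosome 5, ranked 29537, and replicate 2 had one at base 29314962, ranked 32772 and so below the limit. At E10.5 the ZRS summit at base 29315076 ranked 11522. The interval on the last summit, in an intron of Lmbr1, was therefore E10.5 only by the rule, although both E10.25 WT replicates held a summit in the element. The replicate 1 summit is among the 1400 that share the value at the limit. The Lmbr1 promoter, which is open in many tissues, ranked 5065 at E9.5, 3200 and 2891 at E10.25 and 6684 at E10.5. The Shh promoter (chr5:28467028-28467227) was listed at E10.5 only, at rank 29541, and was in no whole list of the earlier stages. Of 9 Shh regions, 4 were E10.5 only, where the share over all regions was 12.9%, and none was E9.5 only or from E10.25 on. Besides the promoter, the E10.5 only regions of Shh lay 33.9, 96.0 and 222 kb upstream of its start, at ranks 20541, 20102 and 27934. None of the 4 had a neighbour in an earlier list. The remaining Shh regions were in none of the 3 stage classes. Of 2 Shh regions in both E10.25 WT lists and in neither of the others, one lay at an annotated start within the gene (chr5:28458228-28458427) and ranked 28965 and 19082.

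**Figure D3:**
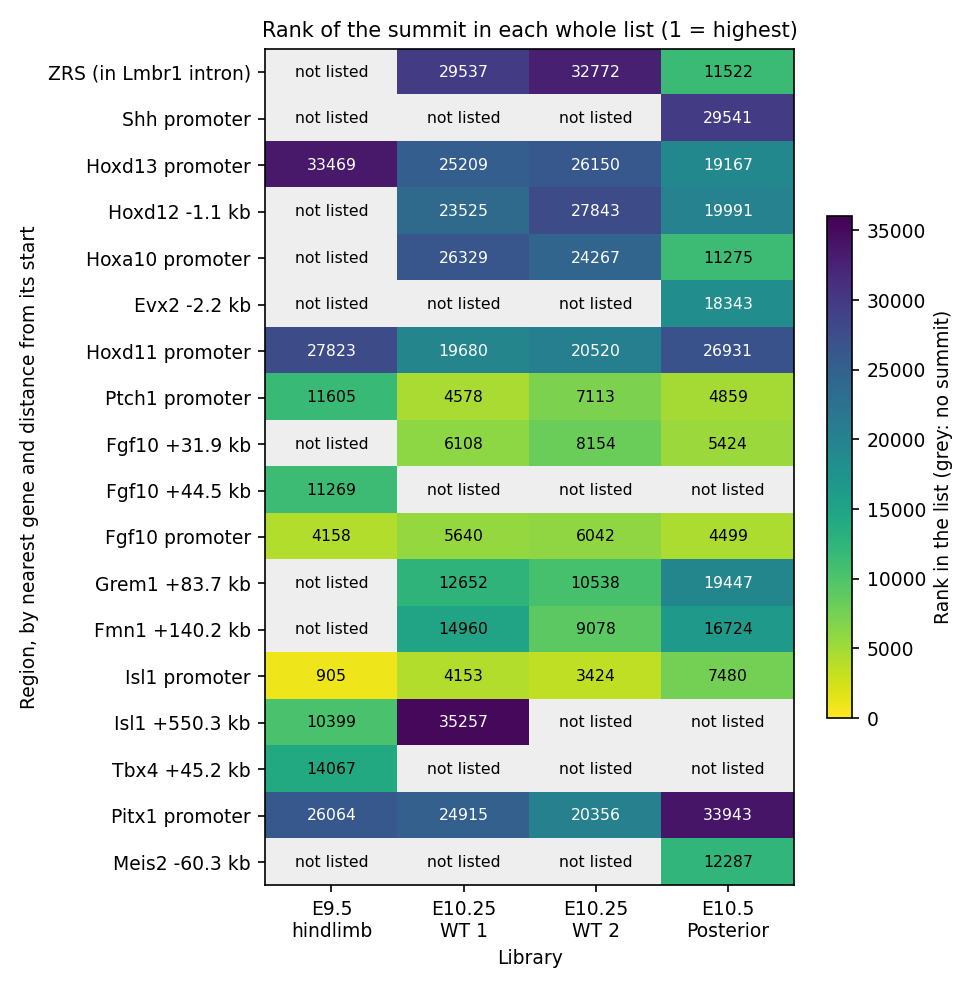
Rank of the summit within 200 bp of each region (rows, named by the nearest gene and the distance from its start; the ZRS row is any summit in the element) in the whole list of each library (columns), where 1 is the highest and grey means no summit. ZRS, Hoxd13, Hoxd12 and Hoxa10 ranked best at E10.5 and were unlisted or below 30000 at E9.5, while the Tbx4 region 45.2 kb away and an Fgf10 region were listed at E9.5 alone.

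The 5′ HoxD and HoxA genes, which encode the transcription factors of the distal and posterior limb, had 18 regions. None was listed at E9.5 only, 3 were listed from E10.25 on and 3 at E10.5 only, where the shares over all regions were 11.9%, 4.66% and 12.9%. The Hoxd13 promoter (chr2:74667924-74668123) ranked 33469 at E9.5, below the limit, then 25209 and 26150 at E10.25 and 19167 at E10.5. A site 1.13 kb upstream of Hoxd12 (chr2:74673781-74673980) was absent at E9.5 and ranked 23525, 27843 and 19991 in the later lists. A Hoxa10 promoter (chr6:52240653-52240852) was absent at E9.5 and ranked 26329 and 24267 at E10.25 and 11275 at E10.5. The E10.5 rank was better than both E10.25 ranks at each of these sites, but only at Hoxa10 by more than the 8632 ranks that bounded 95% of the differences between the replicates. Evx2, next to Hoxd13, had a region 2.23 kb upstream at E10.5 only (rank 18343, no neighbour). Hoxd11 and Hoxd10 promoters were in all 4 lists, at ranks 27823, 19680, 20520 and 26931 and at 22619, 20427, 27782 and 26263. Other sites of the list did not rank best at E10.5. The Hoxa13 promoter ranked 17167 at E9.5 and 18641 in E10.25 WT replicate 1, was absent from replicate 2 and ranked 27138 at E10.5. Sites 3.41 kb into Evx2 (ranks 28845 and 20693) and 1.87 kb upstream of Hoxd12 (25315 and 29946) were within the limit at E10.25 alone. Of the 11 promoters of this list, 3 were in the E9.5 list, 8 and 5 in the E10.25 lists and 7 in the E10.5 list. The more 3′ HoxA and HoxB genes had 34 regions, with 3 at E9.5 only, none from E10.25 on and 8 at E10.5 only (23.5%). The difference between the E9.5 only and E10.5 only shares, -14.7 points, was 0 with the 15000 highest summits and 0 among regions with no other summit within 1000 bp. Most of their promoters, including Hoxb4 to Hoxb8, were unlisted throughout. Promoters listed were 1, 3, 5 and 2 of 16 in the order of the libraries.

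Most genes of the hedgehog pathway had a listed promoter at every stage, with 10 of 12 listed at E9.5, 11 and 10 at E10.25 and 12 at E10.5. The exceptions were Shh, listed at E10.5 alone, and Gli1. Of their 116 regions, 11 (9.48%) were E9.5 only, 4 (3.45%) from E10.25 on and 15 (12.9%) E10.5 only, which were near the shares over all regions. Ptch1, the SHH receptor and a target of the pathway, had a pair of promoter sites in all 4 lists, and the better-ranked, 2.31 kb upstream at another annotated start, ranked 11605 at E9.5, 4578 and 7113 at E10.25 and 4859 at E10.5. At this Ptch1 site E9.5 ranked lowest, by less than the 7141 ranks that bounded 95% of replicate differences in regions of all 4 lists. The other Ptch1 promoter site, 662 bp upstream of the main start, ran the other way (16173, 21661, 16678 and 21877). Ptch1 had no region from E10.25 on and 3 at E10.5 only, of which the best (rank 10237, at a non-coding start 61.7 kb upstream) had an E10.25 WT replicate 2 summit at rank 33151. The promoter of Gli1, a target gene that marks active signalling, was unlisted at E9.5 and in replicate 2 and ranked 28683 in replicate 1 and 27044 at E10.5. Hhip, a secreted inhibitor induced by SHH, had regions from E10.25 on 72.9 kb into the gene (ranks 18826, 15309 and 25378) and 206 kb upstream (ranks 18828, 22947 and 13672). Gli3, whose repressor form acts in the anterior bud, had a promoter rank of 1360 at E9.5, 4754 and 3266 at E10.25 and 5691 at E10.5. The Gli3 promoter ranked best at E9.5, also by less than 7141 ranks.

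FGFs of the ectodermal ridge, the antagonist Grem1 and BMPs form a signalling loop. An Fgf10 intron site 31.9 kb from the start (chr13:118746525-118746724, sequence above) was absent at E9.5 and ranked 6108 and 8154 at E10.25 and 5424 at E10.5. A neighbouring Fgf10 intron site 44.5 kb from the start ranked 11269 at E9.5 and was in no later list. The Fgf10 promoter itself ranked 4158, 5640, 6042 and 4499 in the order of the libraries. The Fgf10 promoter was thus in all 4 lists, while 6 of the 17 Fgf10 regions were E9.5 only, 3 from E10.25 on and 3 E10.5 only. Grem1, the BMP antagonist that maintains FGF signalling in the ridge, had a region 83.7 kb from its start (chr2:113674811-113675010, in an intron of the neighbouring gene Fmn1) ranked 12652, 10538 and 19447 from E10.25 on. A second Fmn1 intron site (140 kb from the Fmn1 start) ranked 14960, 9078 and 16724, and neither site had a summit within 1 kb at E9.5. Near the start of Grem1 each list had a summit, at shifted positions. At E9.5 it lay 1193 bp into the gene (rank 18314), in E10.25 WT replicate 1 and at E10.5 969 bp into it (16369 and 15130), and in replicate 2 at the start itself (11507). The promoter of Fmn1 ranked 588, 1911, 1648 and 756. Dusp6, a feedback phosphatase induced by FGF signalling, had 5 regions from E10.25 on, the most of this list. Only the Dusp6 region 127.6 kb from the start (ranks 20893, 29845 and 11257) lacked a neighbour, and at the others E9.5 summits lay within 1 kb. Over all their regions, the FGF pathway had 24 regions at E9.5 only (15.8%), 9 from E10.25 on (5.92%) and 27 at E10.5 only (17.8%) of 152, and the BMP pathway 22 (12%), 12 (6.52%) and 28 (15.2%) of 184, against 11.9%, 4.66% and 12.9% of all regions. The BMP share at E9.5 only was near that of all regions. Fgf8, expressed in the ridge, and Fgf17 had no promoter in any whole list, and the Fgf4 promoter was within the limit in E10.25 WT replicate 2 alone (rank 27991).

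Genes of hindlimb identity leaned towards E9.5. Of the 56 regions of Isl1, Pitx1, Tbx4 and Tbx5, 13 (23.2%) were E9.5 only, against 11.9% of all regions, 2 were from E10.25 on and 3 E10.5 only. Isl1, which starts hindlimb outgrowth, had 7 of the 13. Its promoter ranked 905 at E9.5, 4153 and 3424 at E10.25 and 7480 at E10.5. The Isl1 site with the best rank among those of E9.5 only lay 550 kb downstream, ranked 10399, with an E10.25 WT replicate 1 summit at rank 35257. Tbx4, the hindlimb T-box gene, had 3 regions at E9.5 only, and the one 45.2 kb downstream (chr11:85941913-85942112, rank 14067) had no neighbour in any other list. The Tbx4 promoter ranked 21159 at E9.5, 18551 and 17720 at E10.25 and 41479 at E10.5, at sites 150 and 380 bp upstream of the start. Near another annotated start of Tbx4, a site 1.37 kb upstream was listed at E10.5 only (rank 24457) and one 1.13 kb upstream at E9.5 only (rank 23978). The Pitx1 promoter ranked 26064, 24915 and 20356 and then 33943. Isl1, Tbx4 and Pitx1 promoters all ranked lowest at E10.5. For Isl1 the step from every earlier list was under the 7141 ranks given above. For Pitx1 the step from E9.5 was under the 8632 ranks given above, and those from E10.25 were over it. Only for Tbx4 was the step from every earlier list over 8632 ranks. The Tbx5 promoter, whose gene acts in the forelimb, was in no list. Genes of the lateral plate mesoderm, from which limb mesenchyme derives, had 12 of 55 regions at E9.5 only (21.8%) and 4 at E10.5 only. Hand1 promoter ranked 21120 at E9.5 and was within the limit in no other list, and Foxf1 ranked 28880 and 26201 at E10.25 alone, at sites 646 bp upstream and 192 bp downstream of the start. Stage and whole against posterior bud cannot be told apart in these counts. The excess at E9.5 for the lateral plate list had the other sign with 15000 summits (-26.7 percentage points, E9.5 only minus E10.5 only) and with whole lists (-3.90), and that of hindlimb identity fell from 17.9 points to 4.55 and 1.2.

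Regulators along the anterior-posterior axis had regions in every class, at shares near those of all regions, with 31 of 202 at E9.5 only (15.3%), 9 from E10.25 on (4.46%) and 31 at E10.5 only, against 11.9%, 4.66% and 12.9%. Tbx3, expressed in the posterior and anterior margins, had 11 E10.5 only regions of 26, more than any other gene, and none from E10.25 on. The best of the Tbx3 regions ranked 14110 and lay 492 kb upstream, with an E10.25 summit at rank 31952, and 6 of the 11 had no neighbour. Hand2, which activates Shh, had its promoter in all 4 lists at ranks 18440, 15105, 11767 and 14549. The anterior gene Alx1 had 5 of its 8 regions at E9.5 only, and its promoter ranked 3347, 5658, 3645 and 3100. The anterior gene Alx4 had its promoter in both E10.25 lists (18553 and 24135), below the limit at E10.5 (36416) and absent at E9.5. The Pax9 promoter, of an anterior gene, ranked 5152, 11955 and 10175 and was in no E10.5 list. Irx3, needed in early hindlimb progenitors, had an E9.5 only region 16.9 kb upstream at rank 10761, with no neighbour, and its promoter ranked 11699, 18252, 15012 and 24541. Genes of the proximal-distal axis and of retinoic acid signalling had 22 (13.8%), 11 (6.88%) and 23 (14.4%) of 160 regions in the classes, against 11.9%, 4.66% and 12.9% of all regions. Meis2, a proximal regulator, had 3 E10.5 only regions without a neighbour, at ranks 15544, 12287 and 16942. Rarb had 6 such regions, the best at rank 11120 (sequence above).

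Limb mesenchyme and cartilage genes supplied the largest list, with 33 of 222 regions at E9.5 only (14.9%), 10 from E10.25 on (4.50%) and 34 at E10.5 only (15.3%), which were near the 11.9%, 4.66% and 12.9% of all regions. Sox9, the regulator of cartilage formation, had 45 regions of which 11 were E9.5 only, 1 from E10.25 on and 9 E10.5 only. The Sox9 region from E10.25 on, 195 kb from the start, ranked 17623, 15779 and 9689, and the best of those at E10.5 only ranked 12525 and lay 292 kb away. The promoter of Pdgfra, a mesenchymal receptor, was unlisted at E9.5 and had a site 503 bp into the gene at E10.25 (ranks 14955 and 11874) and another at the start at E10.5 (20053). That of Lhx2, a LIM homeobox gene of the distal mesenchyme, ranked 12844 at E9.5, 6433 and 6777 at E10.25 and 4528 at E10.5. Lhx9, its close relative, had a promoter site at E9.5 and E10.25 (ranks 10806, 12901 and 11362) 206 bp upstream of a start and another, 27 bp downstream of it, at E10.5 alone (27128).

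Markers of other cell types differed among the libraries. The shares over all regions were 11.9% at E9.5 only, 4.66% from E10.25 on and 12.9% at E10.5 only. Ectodermal genes had 19 of 90 regions at E10.5 only (21.1%), 8 at E9.5 only (8.89%) and 2 from E10.25 on (2.22%), and 10 of their 19 promoters were listed at E10.5 against 4 at E9.5 and 8 and 6 at E10.25. The promoter of Grhl2, an epithelial regulator, ranked 12597 at E10.5 and was in no other list. The Trp63 promoter, of the basal epithelium, ranked 23456 at E10.5 alone, and that of Cdh1, epithelial cadherin, ranked 11245 at E10.5, 32678 at E9.5 and 29816 in E10.25 WT replicate 1. The Esrp1 promoter ranked 16567 at E10.5. The keratin promoters Krt5 and Krt14 were listed in none. Other members ran differently, such as Sp8 (ranks 13842, 15101 and 7117, absent at E10.5), Tfap2a (31360, 24760, 26063 and 40589) and Epcam (absent at E9.5, then 20708, 15594 and 23911). Neural and neural crest genes had 10 of 48 regions at E9.5 only (20.8%) and muscle progenitor genes 13 of 67 (19.4%), with 7 (14.6%) and 11 (16.4%) at E10.5 only. The excess of E9.5 only over E10.5 only in both lists had the other sign with whole lists (-2.47 and -8.47 points). Pax3, of migrating muscle progenitors, had its promoter at rank 17541 at E9.5, 31407 and 23814 at E10.25 and 29547 at E10.5. Endothelial genes had 12 (10.4%), 5 (4.35%) and 11 (9.57%) of 115 regions, near or below the shares of all regions, with promoters of 10 of 23 listed at E9.5, 13 and 12 at E10.25 and 9 at E10.5. Blood genes had 7 (9.46%), none and 10 (13.5%) of 74, with promoters of 7, 10, 8 and 5 of 17 listed, and the embryonic globin promoter Hbb-y ranked 24745, 23106 and 28212 and was absent at E10.5, whereas that of Nfe2, another erythroid gene, ranked 23674, 18175, 13766 and 13494. The part of these cell types in the stage classes was not tested.

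The best-ranked regions of each stage class, 10 per class, were mostly promoters with a summit of another stage close by. All 10 named from E10.25 on were promoters (Rps6ka5, Osbp, Ebag9, Lyrm1, Osbpl9, Zfp963, Dctn4, Rnpc3, Mon1b and a start near Zfp982) with an E9.5 summit 202 to 290 bp away. Rps6ka5, a kinase, ranked 89, 102 and 315, and Osbp, an oxysterol-binding protein, ranked 209, 228 and 191. At E9.5 only the named regions were nearest to Il31ra, Tmem125, Pdcd10, Mphosph8, Clec11a, Osbpl9, 1700064H15Rik, Opa3, Slc2a13 and Vim, 6 of them promoters, and 8 of the 10 had a later summit within 1 kb. Osbpl9 was named in both classes, for the E9.5 summit (rank 1014) and the later summit at the start (ranks 341, 480 and 286). At E10.5 only they were nearest to Samd9l, Sdccag8, Pmfbp1, Actr3, Mtrf1l, Fgfr1op, Abtb1, Gm3252, Lnpep and Gm3512, 7 of them promoters, and 9 of 10 had an earlier summit within 1 kb. Gm3252 and Gm3512 belong to a family of near-identical copies, where reads could be shared, and are uncertain.

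Regions without a neighbour gave a different set, chosen after the values had been seen. At E9.5 only the best was in an intron of Il31ra, a cytokine receptor gene (rank 60, −log10 q of 342), followed by Mphosph8 (366), Rsph3b (2577) and a site 189 kb from Cdh11, a mesenchymal cadherin (3161). From E10.25 on the best lay far from protein-coding starts, 330 kb upstream of Il7 (ranks 3179, 2491 and 1214), 181 kb upstream of Slc10a2 (3071, 4727 and 2272) and 434 kb from Robo1, an axon guidance receptor (5967, 6794 and 2015). The Adgrl2 site 836 kb upstream ranked 5574, 5411 and 5260, and a site 131 kb upstream of Sim1 ranked 6788, 4939 and 5914. At E10.5 only the best was 47.0 kb upstream of Pmfbp1 (rank 301), followed by an intron of Atp2b2, a calcium pump (3006), a site 161 kb from S1pr1, a sphingosine phosphate receptor (3201), the promoter of Kdf1, an epidermal differentiation gene (3930), and a site 953 kb from Trps1, a repressor of chondrocyte genes (4384). Mup15 and Mup17, also among them, belong to a repeated family. Several of these sites lie over 100 kb from a coding start, and the gene named is the nearest and not a known target.

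Counted by gene, the E9.5 only class was led by Adgrl2 (19 of 67 regions), Pde4d (15 of 47), Gm10139 (12 of 17), and Cdh11, Gm31371 and Sox9 with 11 each. Gm10139 and Gm31371 had none from E10.25 on. The class from E10.25 on was led by Adgrl2 and Ptprd with 7 each and by Cdh11, Dusp6, Efnb2 and Ptprg with 5 each. All 5 regions of Efnb2, an ephrin ligand, had no neighbour at E9.5. The E10.5 only class was led by Tbx3 (11 of 26), Robo1 (10 of 38) and Negr1, Sox9, Zfp36l1 and Zmiz1 with 9 each. Zmiz1 had 1 region at E9.5 only and none from E10.25 on. Genes in large deserts have more sequence to hold regions, and no length correction was made.

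The words in the distal regions differed among the stages. TAATTA, the homeobox word, was in 3.39% of distal regions at E9.5 only (186 of 5481), 19% from E10.25 on (319 of 1679) and 9.47% at E10.5 only (563 of 5946), against 7.83% of all distal regions and 5.41% of all regions. In regions without a neighbour the shares were 3.37%, 21.5% and 8.78%. The GATA words were in 22.8% at E9.5 only, 11.6% from E10.25 on and 19.4% at E10.5 only, against 18.2% of distal and 13.4% of all regions. In the distal regions listed in both E10.25 WT lists alone they were in 25.6%, above the share at E9.5 only. The TEAD word was in 14.3%, 11.7% and 21.0%, against 13.6% and 11.3%. The MEIS word TGACAG was in 20.9%, 15.7% and 14.2%, against 16.9% and 14.4%, and the E-box CATCTG of HAND and TWIST proteins in 18.9%, 25.6% and 18.8%, against 20.1% and 15.5%. The shares of regions held by 1 E10.25 WT replicate alone were 10.6% and 8.21% for TAATTA and 22.3% and 14.3% for GATA, which shows how far single libraries differ. The ETS words (AGGAAGT or AGGAAAT) were in 11.9%, 13.9% and 10.1%, against 11.9% of distal and 10.1% of all regions. The HOX words (TTTATTG or TTTATGG) were in 10.8%, 11.8% and 12.1%, against 9.30% and 6.68%. The GLI word GACCACCCA was in 0.347%, 0.238% and 0.168%, against 0.261% and 0.235%. Of the E-boxes, CAGCTG was in 14.6%, 18.8% and 15.1% (16.4% of distal and 14.9% of all regions) and CATATG in 2.15%, 4.76% and 2.94% (3.12% and 2.27%). The TCF/LEF words (CTTTGAT or CTTTGAA) were in 11.5%, 12.4% and 11.9% (10.49% and 7.84%), the PITX word TAATCC in 7.68%, 7.09% and 5.33% (6.01% and 4.76%), and the SOX word ACAATG in 6.99%, 6.67% and 8.21% (7.2% and 5.96%). The posterior HOX word TTTACGA was in 1.06%, 1.01% and 1.5% (0.983% and 0.776%), the T-box word AGGTGTGA in 0.785%, 0.893% and 0.891% (0.793% and 0.633%) and the AP-1 word TGANTCA in 5.78%, 5.48% and 5.97% (5.49% and 4.49%). The SP/KLF word GGGCGG was in 8.39%, 12.3% and 9.25% of these regions and 23.9% of distal regions of all 4 lists, and the CTCF word in 6.71%, 5.42% and 5.45% and 11.1%, so that both were more frequent in shared sites.

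**Figure D4:**
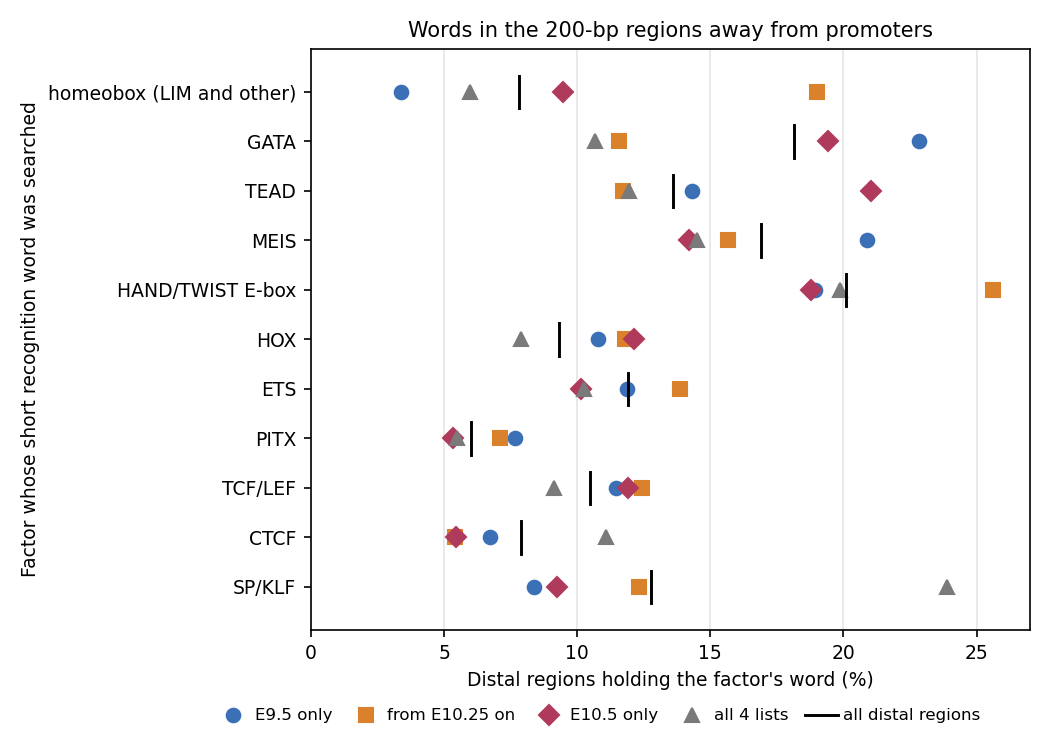
Share of distal regions (horizontal axis, percent) that hold the short recognition word of each factor (rows) in each stage class and in regions of all 4 lists, with a black bar for all distal regions. The homeobox word stands at 19% from E10.25 on and 3.39% at E9.5 only, the TEAD word at 21.0% at E10.5 only, and the GATA and MEIS words highest at E9.5 only among the stage classes.

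Over all distal regions of each list of 30000 summits the same words differed less. TAATTA was in 4.65% of the distal regions of E9.5 HL, 9.23% and 8.35% of those of the E10.25 WT replicates and 9.05% of those of E10.5 Posterior, so that E9.5 lay below a narrow range of the other 3. TEAD was in 13.3%, 11.2%, 11.1% and 16.2%, with E10.5 highest and the replicates nearly equal. MEIS was in 18.2%, 16.0%, 16.6% and 15.1%. GATA was in 17.8%, 17.2%, 14.9% and 15.8%, and the gap between the E10.25 replicates was as wide as that between stages. Words rich in A and T are more frequent where GC content is low. In the lowest of 3 groups of distal regions by GC content (cut at 47.5%) TAATTA was in 6.14% at E9.5 only, 28.2% from E10.25 on and 14.1% at E10.5 only, and in the highest (cut at 54%) in 1.23%, 5.64% and 2.48%. The order of the classes was the same in each part. TEAD was highest at E10.5 only in each of the parts (20.2%, 23.7% and 18.8%). For GATA the lead of E9.5 only over E10.5 only was 36.6% against 28.3% at low GC and was 7.86% against 7.67% at high GC.

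Libraries that took no part in the classes showed how often the regions of each class recurred. The class from E10.25 on requires 3 lists and had a median mean rank of 17387. The single-stage classes require 1 list and had median ranks of 23335 at E9.5 only and 22990 at E10.5 only. The part of this in the shares below was not tested. Control A and control P are limb bud libraries, read as anterior and posterior, of 4 control embryos from the Etv2 overexpression cross, and their 30000 highest summits were used. They are labelled E10.5, but the harvest described for that cross is later, so their stage is uncertain, and the sources differ on which transgene the controls lack. Regions from E10.25 on were listed in 56.2% to 59.7% of cases in control A and 55.5% to 57.9% in control P, and regions of all 4 lists in 85.3% to 87.3%. Regions at E9.5 only were listed at 9.80%, 10.0%, 11% and 10.4% in control A and 12.2%, 11.5%, 11.8% and 11.1% in control P. Regions at E10.5 only were listed at 19.3%, 21.0%, 18.2% and 19.5% in control A and 22.7%, 21.9%, 21.9% and 21.3% in control P. Control P held more of both single-stage classes, and its libraries did not overlap those of control A in either. The difference was 1.35 percentage points at E9.5 only and 2.50 at E10.5 only (each p = 0.0286, two-sided exact permutation test, the smallest p that 4 against 4 allows, adjusted p = 0.0343 over 6 tests). For the class from E10.25 on it was -1.31 points (exact permutation p = 0.229). With anterior and posterior libraries of an embryo paired as a replicate block, the exact permutation p was 0.125 for both single-stage classes, the smallest that 4 pairs allow. The control P lists were longer (51268 to 54679 summits) than those of control A (40949 to 45765), and the part of this in the difference was not tested. With whole lists both adjusted p-values were 0.0571 (exact permutation test).

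In E10.5 HL EYFP+ cells, sorted from hindlimbs by an Etv2-EYFP reporter, and in posterior hindlimb cells of the Etv2 conditional knockout (CKO, HoxB6-Cre Tg/+; Etv2 fl/-, where the Cre acts in lateral plate and limb mesoderm) the 15000 highest summits were used. Regions from E10.25 on were listed at 41.1%, 41.9% and 43.1% in E10.5 HL EYFP+, at 28.0%, 16.9%, 31.3%, 29.5% and 30.9% in E10.25 CKO and at 28.5% and 30.4% in E10.5 CKO. Every EYFP+ library was above every CKO library. The mean was 42.1% ± 0.990 (SD, n = 3) against 27.9% ± 5.01 (n = 7), a difference of 14.1 points (exact permutation p = 0.0167, the smallest that 3 against 7 allows, adjusted p = 0.0333). Regions at E9.5 only went the other way, at 2.50% ± 0.163 against 5.62% ± 2.09, with CKO libraries from 2.79% to 8.38% all above the EYFP+ range of 2.32% to 2.62% (difference -3.12 points, exact permutation p = 0.0167, adjusted p = 0.0333). Regions at E10.5 only were listed at 4.87% ± 1.45 against 2.69% ± 0.490 (difference 2.19 points, exact permutation p = 0.0167, adjusted p = 0.0333), with the lowest EYFP+ library at 3.43% and the highest CKO library at 3.41%. Regions of all 4 lists were at 61.4% to 69.3% in EYFP+ and 57.1% to 77.3% in CKO libraries, which overlapped. The groups also differ in the sort, since EYFP+ cells were sorted for the reporter and CKO cells were not, and stage, sort and genotype cannot be told apart. The CKO lists were 15629 to 42744 summits long and the EYFP+ lists 32247 to 41285. With whole lists the 3 differences missed the threshold (adjusted exact permutation p = 0.567 at E9.5 only, 0.16 from E10.25 on and 0.075 at E10.5 only). The CKO libraries were each made from pooled embryos, and whether these replicates or those of the EYFP+ libraries came from separate litters is not stated, so the p-values measure the spread between these libraries. In the whole lists the ZRS had a summit in 3 of 3 E10.5 HL EYFP+, 0 of 5 E10.25 CKO and 0 of 2 E10.5 CKO libraries. It had one in 4 of 4 control P and 2 of 4 control A libraries. The EYFP+ summits ranked 19773, 30080 and 10565, so only the last was within 15000. E10.25 CKO replicates 2 and 4 listed only 15629 and 19737 summits, so a summit at the lower of these ranks could not appear there. Control P replicate 3 (32917) and control A replicate 2 (37914) ranked below 30000.

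**Figure D5:**
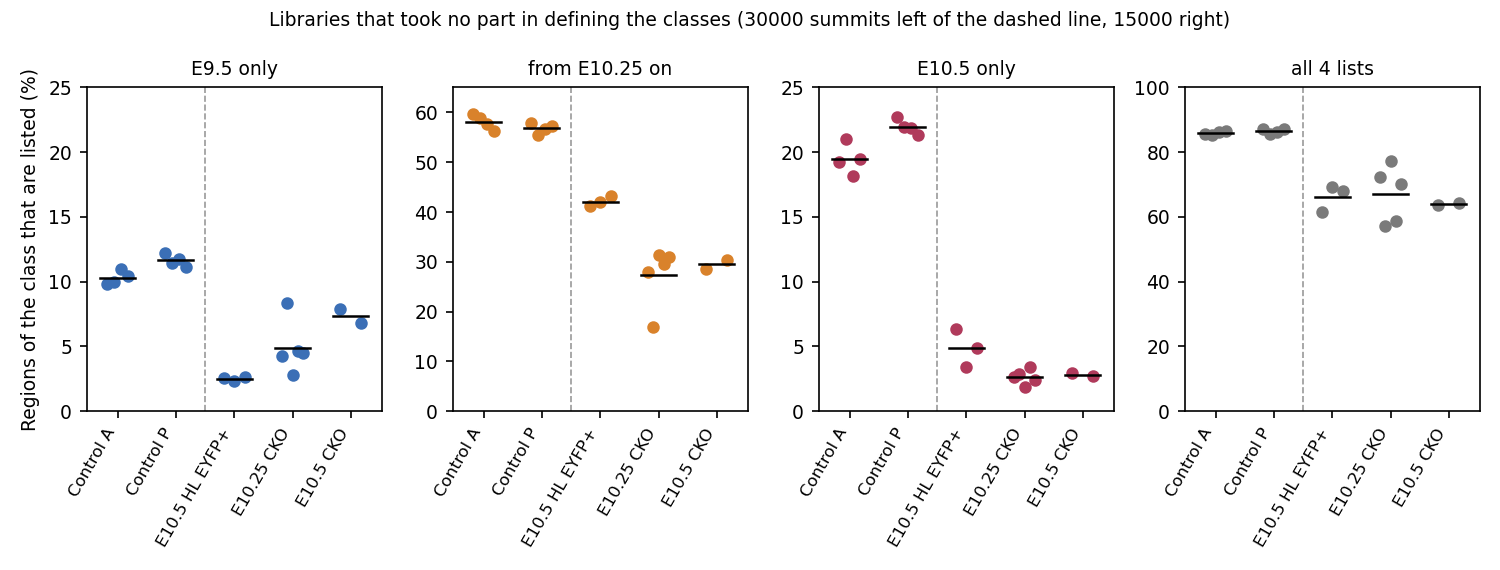
Percent of the regions of each class (panels) listed in libraries that did not define the classes, 1 point per library and a line at the mean, with 30000 summits for control A and P and 15000 for the others. The class from E10.25 on lies at 41.1% to 43.1% in E10.5 HL EYFP+ and at 16.9% to 31.3% in the CKO libraries, and the E9.5 only class lies lower in EYFP+ than in every CKO library.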

How the data were processed

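ATAC-seq libraries of mouse limb buds were analysed from the peak summit lists, 1 per library, that the authors deposited. Per the labels and the submitters' processing notes, reads were aligned to mm10 with Bowtie2 2.2.4 and MACS2 was run on single libraries (version and settings: not given in the sources used here). Values deposited by the authors are the −log10 of the MACS2 q-value of each summit, for which no scaling between libraries is described, so they served only for ranking. No values from pooled libraries were used, and the 6 libraries with Etv2 overexpression were not used here.

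Mitochondrial summits (2 to 5 per list) were left out. Lists were limited to their 30000 highest summits (15000 for the EYFP+ and CKO libraries) and 200-bp intervals were placed in order of rank, dropping overlaps. A list held an interval with a summit within 200 bp of its centre. Genomic class and nearest protein-coding start came from the GENCODE vM21 basic annotation on GRCm38.p6, and 18 sets of words were searched on both strands. No searched word contains another, except that the degenerate CTCF word can hold CAGCTG or CATCTG. Repeat-masked share was limited to under 50% for the named regions. Named genes were those of 15 gene lists with a region in a class, the 10 best-ranked regions per class in no other whole list, the 5 genes with most regions per class (ties included) and Lmbr1. The classes, gene lists and words were chosen with earlier results of these data known. Single values were compared by two-sided exact permutation tests over libraries and the 6 tests adjusted by Benjamini-Hochberg (scipy 1.17.1, Python 3.11.15, numpy 2.4.6). Control A and P libraries that share an embryo number in the labels were read as 1 animal, and their deviations from the group means correlated at 0.00128 to 0.0384 (other pairs -0.0253 to 0.0100). Alternatives were 15000 summits or the whole lists, a −log10 q of at least 5, a summit within 100 bp, 500-bp intervals matched within 250 bp, absence judged in the whole lists, each library left out, and a replicate block. Steps were tested on simulated lists. One region that carried a searched word is not reported here.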

Additional observations from a re-analysis of the deposited data

Results flagged for a closer look

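The second E10.25 CKO library listed 16.9% of the regions from E10.25 on, far below the other 4 libraries of its group, and the gap was 0.768 of the range of the group. It had the shortest list of the group (15629 summits) and 57.1% of the regions of all 4 lists. Of 12 groups of values examined in this way, 1 stood apart, and Dixon's 95% critical value, the limit used, is passed by chance in about 1 in 20 groups.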

How the results depend on the processing

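Limits on the counts came from the length of the lists. With 15000 summits there were 2558 regions at E9.5 only, 1259 from E10.25 on, 2482 at E10.5 only and 8537 in all 4 lists. With the whole lists there were 15021 at E10.5 only, in the longest list. Absence within 1000 bp, added after the data had been seen, gave 2903, 1341 and 4191. Leaving out an E10.25 WT replicate gave 7888 to 7955, 3605 to 3796, 8123 to 8335 and 14710 to 15288. The other counts stayed within 1.5 times.

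For control P minus control A, the adjusted p rose above 0.05 at E9.5 only with the whole lists (6.69 points), absence in the whole lists (1.05) and the replicate block (1.35), and at E10.5 only with the same settings (8.08, 2.19 and 2.50). From E10.25 on the block value was -1.31, as without the block, and the whole lists gave 5.15, on the other side of 0 and not called. Leaving out a library gave 1.15 to 1.58, -1.94 to -0.774 and 2.06 to 3.01 points for the classes in stage order, and 4 against 3 cannot go below p = 0.0571 in an exact permutation test. For E10.5 HL EYFP+ minus CKO, E9.5 only missed the threshold with the whole lists (-3.53), a summit within 100 bp (-2.12) and absence within 1000 bp (-1.94). From E10.25 on it missed it with the whole lists (19.2), and gave 28.7 with absence within 1000 bp. E10.5 only missed it with 10000 summits (0.930), the whole lists (9.88) and absence in the whole lists (1.71). Leaving out a library gave -3.59 to -2.66, 12.3 to 14.7 and 1.46 to 2.91 points, and only the settings without an EYFP+ library, where 2 against 7 cannot go below p = 0.0556 in an exact permutation test, missed the threshold. The cause of these changes was not tested.

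For the words, 35 values under other settings, chosen after seeing the data like those for gene lists, kept their direction. Of these 35, 23 were classed as the same and 12 as moved in size. They cover only some of the words, and only the share from E10.25 on minus that at E9.5 only. The TEAD share at E10.5 only was not put under other settings. Of 42 values under other settings for gene lists, 7 turned. The excess of E9.5 only over E10.5 only turned for lateral plate mesoderm with 15000 summits (-26.7 points) and the whole lists (-3.90), for muscle progenitors with the whole lists (-8.47) and absence within 1000 bp (-4.48), and for neural and neural crest genes with 15000 summits (-14.3), the whole lists (-2.47) and absence within 1000 bp (-6.25). For hindlimb identity it shrank to 4.55 and 1.2 points with 15000 summits and the whole lists.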

Other observations

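Values outside the comparisons concern E10.5 Anterior and the forelimb. The E10.5 Anterior library, from anterior hindlimb of Shh-EGFP embryos, had 13766 summits in all. It listed 19.7% of the regions from E10.25 on, 7.29% of those at E9.5 only and 2.63% of those at E10.5 only, and held no summit in the ZRS. The list was longer than the ZRS rank at E10.5 Posterior (11522) but shorter than those in control P (21018 to 32917). The part of list length in this absence was not tested. With 54.0% of the regions of all 4 lists it was the lowest of the libraries used here. The 3 E10.5 FL EYFP+ libraries, of sorted forelimb cells, listed 36.5%, 38.0% and 38.8% of the regions from E10.25 on. They listed 2.21% to 2.64% of those at E9.5 only and 5.35% to 6.37% of those at E10.5 only. All held a ZRS summit in their whole lists (ranks 30411, 23382 and 20898).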
